A study of Mus musculus with 9 samples.

Results

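The cyclin D and RB pathway was followed through 10 genes on all 9 arrays of the series. They were the D cyclins Ccnd1, Ccnd2 and Ccnd3, the kinases Cdk4 and Cdk6, the inhibitors Cdkn1b, Cdkn2c and Cdkn2d, and the pocket proteins Rb1 and Rbl1. Every probe set to which the platform annotation gives 1 of these symbols alone was taken, which gave 29 of the 45037 probe sets left after 64 controls were set aside. Of these 29, 23 had a mean signal of at least 100 over the 9 arrays and were tested, as were 19090 probe sets in all, standing for 10177 genes. Each of the 10 genes kept at least 1 tested probe set. The 6 that did not pass this minimum, for Ccnd3, Cdk6, Rb1 and Rbl1, averaged 20.3 to 38.2 in signal.

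D cyclins are made in response to growth factors and bind CDK4 or CDK6. These kinases phosphorylate RB and its relatives, which then let go of the E2F transcription factors, and genes needed for DNA synthesis come on. INK4 proteins, among them the products of Cdkn2c (p18) and Cdkn2d (p19), bind CDK4 and CDK6 and keep the D cyclins off. The Cdkn1b product p27 blocks cyclin E and cyclin A kinases and is also found in cyclin D complexes. In mouse fibroblasts the INK4 and ARF products of the Cdkn2a locus are known to build up in culture, and cells that immortalise spontaneously often lose that locus or p53.

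The cells were mouse embryonic fibroblasts from E13.5 embryos, grown on as lines that had immortalised spontaneously. Suv420h1 -/- cells lack a histone H4 methyltransferase (gene symbol Kmt5b), and they were profiled after reconstitution with a Suv420h1-GFP fusion (1 array) or as the null line proper, with no construct named (called untransduced) or with GFP (2 arrays). Wild-type cells carried truncated PREX2 (K278*, E824* or Q1430*, 1 array each), full-length PREX2 (1 array) or a control vector, GFP or LacZ (2 arrays). PREX2 is an exchange factor for the RAC GTPase, and lentivirus brought the transgenes into the wild-type cells. Whether the arrays in a group hold RNA of separate cultures is not stated, so the spread behind each p-value may be technical. With 1 line of each genotype, genotype and line cannot be told apart. RNA came from whole cultures, in which fewer cells of a kind and less RNA per cell cannot be told apart.

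The arrays were checked against their labels first. Of 5 Kmt5b probe sets, 4 were tested and they did not move together: at 1451817_at the signal was 150 with Suv420h1-GFP, 8.85 in untransduced and 17.3 in GFP null cells, and 118 to 182 in the wild-type line. At 1455171_at it was higher in the null line, at 462 to 554 against 221 to 338 in the wild-type line. Which exons were deleted is not given in the labels, so a probe set outside them checks nothing. The Prex2 probe set 1436569_at read 703 to 809 with truncated PREX2, 795 with full-length PREX2 and 452 and 677 with control vectors. On the null-line arrays it read 198 to 323. Neither comparison of PREX2 with control vectors passed the test in limma at this probe set. Whether it detects the transgenes is not stated, so it does not check the PREX2 labels. All 16 fibroblast markers were tested. Their summed signal was 158489 to 168491 on null-line arrays and 167761 to 232393 on wild-type-line arrays, with Col1a2, Vim and Fn1 at 17093 or more on every array. Thy1, a surface marker of many fibroblasts, stood at 6.90 to 27.3 in the null line and at 1097 to 3641 in the wild-type line. Neural markers summed to 216 to 427 in the null line, against 1049 to 2202 in the wild-type line. Macrophage markers summed to 343 to 383 against 521 to 718, epithelial markers to 471 to 559 against 584 to 641, muscle markers to 360 to 447 against 455 to 810, and endothelial markers to 763 to 878 against 385 to 724. Cdh1, Ptprc and Pecam1, markers of epithelium, blood cells and endothelium, were at or below 54.6 on all 9 arrays. Other markers of the same lists reached higher signals. Among the untested ones Krt8 reached 104, Kdr 109 and Adgre1 86.2. The tested ones are given by line. Epcam read 255 to 432 in the null line and 162 to 301 in the wild-type line, and Krt19 46.6 to 89.1 and 209 to 374. Cd68 read 90.3 to 130 and 85.0 to 133 in the same order, and Csf1r 198 to 206 and 294 to 544. The 2 tested endothelial markers went opposite ways between the lines. Tek read 43.4 to 91.3 and 55.0 to 488 (log2 difference -1.78), and Eng 536 to 667 and 121 to 224 (1.76). The part of these differences in the results below was not tested.

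Between the lines, the cyclin genes Ccnd2 and Ccnd3 and the kinase gene Cdk6 were higher in the null line, the inhibitor genes Cdkn2c and Cdkn1b were lower, and the pocket protein genes Rb1 and Rbl1 did not pass. Cdk4 and Cdkn2d were lower by smaller amounts, and Ccnd1 did not pass. The comparison used limma on log2(signal + 25), with Benjamini-Hochberg adjustment over all 19090 probe sets and a threshold of 0.05, and a gene was represented by its brightest tested probe set. With all 3 null-line arrays set against all 6 wild-type-line arrays, 3 of the 10 genes rose and 4 fell, against 20.7% and 23.2% of all 10177 genes. By probe set 10 of 23 were higher and 6 lower, where 22.1% and 21.3% of all tested probe sets were, and 7 of the 10 higher ones were those of Ccnd2. In the narrower comparison of the 2 null arrays with the 2 control-vector arrays, Ccnd2 and Ccnd3 rose and Cdkn2c fell, 3 of 10 genes, against 20.3% of all genes called in either direction. There 8 of the 23 probe sets were higher and 1 lower, against 10.7% and 8.94% of all probe sets. These comparisons share the 2 null arrays and the 2 control-vector arrays. The median size of a log2 difference was 0.47 over the 10 genes and 0.31 over all genes in the line comparison. The signals of 5 of the 10 genes did not overlap between the lines, and neither did those of 41.4% of all tested genes. Without K278* and the GFP control, 5 genes were higher and 3 lower in the line comparison, and 4 higher and 2 lower in the narrower one, against control-vector LacZ alone. The shares of all genes were also larger in those fits, with 26.9% higher and 30.7% lower in the line comparison, and 17.9% higher and 21.5% lower in the narrower one. Without the untransduced null array, which leaves 1 null array, the narrower differences were 1.47 in Ccnd2, 0.67 in Ccnd3 and -0.88 in Cdkn2c.

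**Figure D1:**
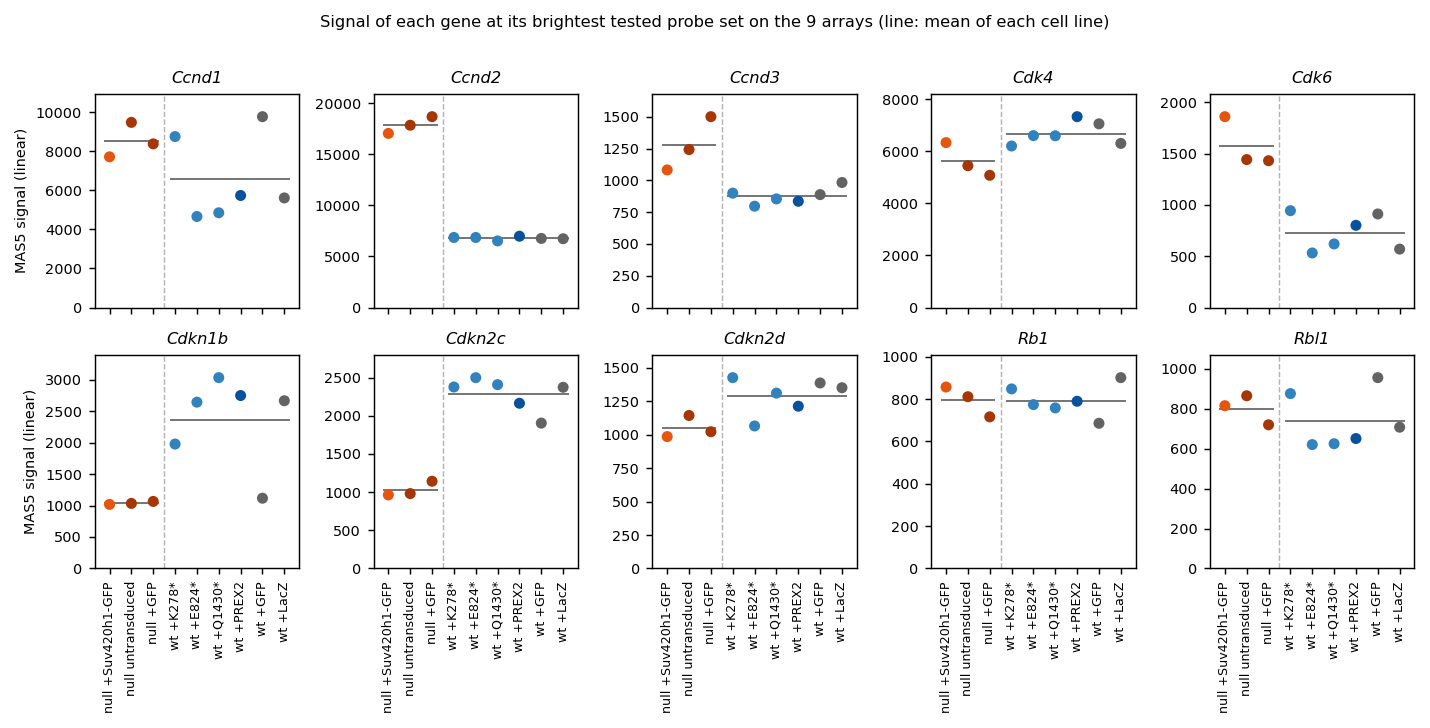
MAS5 signal (linear vertical axis, from 0) of each of the 10 genes at its brightest tested probe set on the 9 arrays, with null-line arrays left of the dashed line and wild-type-line arrays right of it; horizontal lines are the means of each cell line. Ccnd2 sits at 17052 to 18691 in the null line against 6522 to 6983 in the wild-type line, and Cdkn1b is at 1116 in wild-type GFP cells, near the null line's 1018 to 1065.

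Promoter sequence was looked up for the members in the RefSeq table of assembly GRCm38.p6, which holds 300 bases per start, 250 before it and 50 after. It matched 7 genes with 9 windows; Ccnd1, Ccnd2 and Rb1 are named only. Both strands were searched for the E2F words TTTCCCGC, TTTCGCGC, TTTGGCGC and TTTGCCGC, the GC box GGGCGG bound by SP1 family factors, and the forkhead word GTAAACA. An E2F word stood in 1 of the 9 windows and in 2.26% of 32851 promoters in the table. The GC box was in 7 of 9 against 35.7%, and the forkhead word in 1 of 9, that of Ccnd3, against 3.65%. A match is a description of letters and not a mapped site. Given 5′ to 3′ on the gene's strand, with GC boxes and the E2F word in capitals, are the windows of Cdkn2c and Cdkn1b, the member genes that fell most in the null line, and of Rbl1, a textbook E2F target with the only E2F word, 18 bases before its start.
Cdkn2c, chr4:109666707-109667006, minus strand: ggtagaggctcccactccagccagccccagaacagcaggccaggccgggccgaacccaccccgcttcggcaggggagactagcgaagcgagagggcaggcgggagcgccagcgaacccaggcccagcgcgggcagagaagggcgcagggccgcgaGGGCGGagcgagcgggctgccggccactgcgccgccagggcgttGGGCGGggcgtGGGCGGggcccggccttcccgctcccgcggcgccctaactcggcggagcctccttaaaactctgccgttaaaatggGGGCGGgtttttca
Cdkn1b, chr6:134920151-134920450, plus strand: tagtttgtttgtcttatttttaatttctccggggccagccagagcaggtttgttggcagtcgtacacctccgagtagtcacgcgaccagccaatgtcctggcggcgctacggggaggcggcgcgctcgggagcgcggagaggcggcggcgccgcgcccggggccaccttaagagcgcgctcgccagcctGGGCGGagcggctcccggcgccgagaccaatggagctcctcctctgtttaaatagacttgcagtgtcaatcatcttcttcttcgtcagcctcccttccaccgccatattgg
Rbl1, chr2:157204485-157204784, minus strand: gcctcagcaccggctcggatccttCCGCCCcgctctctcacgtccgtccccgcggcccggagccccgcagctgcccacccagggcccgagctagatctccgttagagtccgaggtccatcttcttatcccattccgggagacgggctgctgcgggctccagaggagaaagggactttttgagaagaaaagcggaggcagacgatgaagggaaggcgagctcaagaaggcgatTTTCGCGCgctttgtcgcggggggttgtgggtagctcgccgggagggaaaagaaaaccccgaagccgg
The Cdkn2c window holds 4 GC boxes and no E2F word (the second Cdkn2c window of the table, chr4:109665323-109665622, holds 0 of either), the Cdkn1b window 1 GC box and no E2F word, and the Rbl1 window 1 of each.

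Of the D cyclins, Ccnd2 set the lines apart most evenly. Its brightest probe set, 1434745_at, read 17052 with Suv420h1-GFP, 17853 in untransduced and 18691 in GFP null cells. In the wild-type line it read 6860, 6858 and 6522 with K278*, E824* and Q1430*, 6983 with full-length PREX2, and 6766 and 6735 with GFP and LacZ. The lines did not overlap and the wild-type values lay close together: the means were 17865 ± 820 (SD, n = 3) in the null line and 6787 ± 156 (SD, n = 6) in the wild-type line. On the log2 scale the null line was 1.39 higher (SE 0.0559, limma, adjusted p = 3.38e-08). Against the control vectors alone the difference was 1.43 (SE 0.0910, adjusted p = 0.000138). All 7 Ccnd2 probe sets were above the wild-type line on every null-line array, with log2 differences of 1.27 to 1.85 in the line comparison, so probe sets of the gene gave differing sizes in a shared direction.

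Ccnd3, the D cyclin prominent in lymphoid cells, differed less. At 1415907_at it read 1083 with Suv420h1-GFP, 1243 in untransduced and 1502 in GFP null cells. Wild-type-line values were 900, 797 and 855 with K278*, E824* and Q1430*, 836 with full-length PREX2, and 888 and 984 with GFP and LacZ. The lines did not overlap, though the null-line values were spread wide. The null line was higher by 0.52 (SE 0.111, limma, adjusted p = 0.00333), and by 0.54 against the control vectors (SE 0.150, adjusted p = 0.0444). The second call was lost in 6 of 12 other settings, among them without untransduced null cells (0.67), without GFP null cells (0.40) and without wild-type GFP cells (0.46).

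Ccnd1, the D cyclin best known as a target of growth factor signalling, did not separate the lines. Its brightest probe set, 1417420_at, read 7726 with Suv420h1-GFP, 9493 in untransduced and 8391 in GFP null cells. The wild-type arrays gave 8765, 4666 and 4857 with K278*, E824* and Q1430*, 5744 with full-length PREX2, and 9785 and 5618 with GFP and LacZ. The K278* and GFP arrays were as high as the null line, and the other 4 wild-type arrays were lower. The difference of 0.43 did not pass (SE 0.226, 95% interval -0.07 to 0.93, limma, adjusted p = 0.148), and over its 3 probe sets the differences ran from -0.03 to 0.61. Without the wild-type GFP array it was 0.56, and without GFP and K278* 0.71, and both passed.

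The kinases went different ways. Cdk6, at 1435338_at, read 1860 with Suv420h1-GFP, 1442 in untransduced and 1431 in GFP null cells. Wild-type cells read 944, 532 and 619 with K278*, E824* and Q1430*, 801 with full-length PREX2, and 912 and 569 with GFP and LacZ. Every null-line array was above every wild-type-line array, by 1.11 on the log2 scale (SE 0.193, limma, adjusted p = 0.00092), and the second tested probe set gave 0.96. Against the control vectors alone Cdk6 was 0.97 higher and did not pass (SE 0.300, adjusted p = 0.0604); it was 1.30 and passed without the wild-type GFP array, and was 0.64 and did not pass without LacZ.

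Cdk4 was slightly lower in the null line. Its brightest probe set, 1422441_x_at, read 6329 with Suv420h1-GFP, 5442 in untransduced and 5074 in GFP null cells. In wild-type cells the signal was 6199, 6598 and 6591 with K278*, E824* and Q1430*, 7325 with full-length PREX2, and 7051 and 6299 with GFP and LacZ. The reconstituted array lay within the wild-type range and both null arrays below it. The line difference was -0.25 (SE 0.0853, limma, adjusted p = 0.0336), and the call ended in 8 of 18 other settings. The other Cdk4 probe sets gave -0.30, which passed, and -0.12, which did not.

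**Figure D2:**
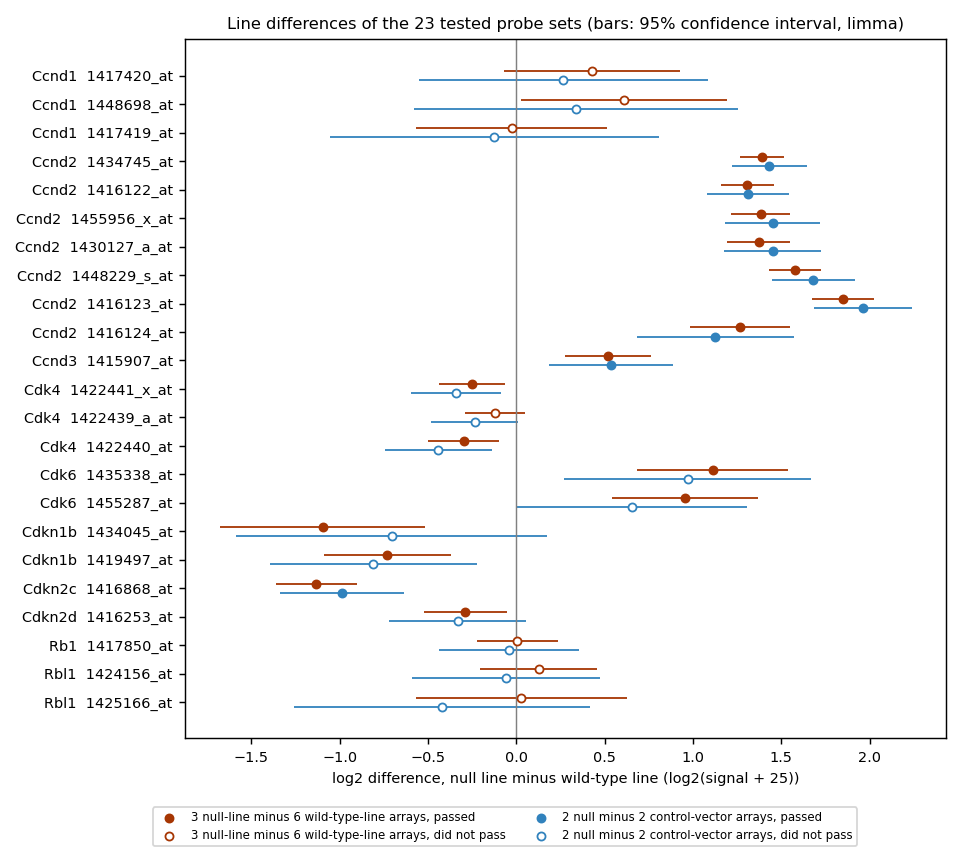
Log2 difference (horizontal axis, log2(signal + 25)) of each of the 23 tested probe sets, for 3 null-line minus 6 wild-type-line arrays and for 2 null minus 2 control-vector arrays; bars are 95% confidence intervals from limma and filled points passed the test. All 7 Ccnd2 probe sets lie between 1.13 and 1.96, and the intervals of Rb1 and Rbl1 include 0.

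Among the inhibitors, Cdkn2c fell. At 1416868_at it read 964 with Suv420h1-GFP, 981 in untransduced and 1143 in GFP null cells. The 6 wild-type-line signals were 2378, 2501 and 2409 with K278*, E824* and Q1430*, 2165 with full-length PREX2, and 1905 and 2374 with GFP and LacZ. The lines did not overlap, and the lowest wild-type value was that of the GFP array. The log2 difference was -1.13 (SE 0.103, limma, adjusted p = 1.14e-05). Against the control vectors it was -0.99 (SE 0.150, adjusted p = 0.00506), a call lost without the untransduced null array (-0.88). The 2 further Ink4 genes ran the opposite way. Cdkn2a, coding for p16 and ARF, stood at 3363 to 4308 in the null line against 0.925 to 15.9 in the wild-type line. Cdkn2b, coding for p15, stood at 1182 to 1741 against 2.04 to 7.17. The line differences of Cdkn2a and Cdkn2b bore on how the member genes were grouped, so they are no finding.

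Cdkn1b differed between lines and also within the wild-type line. Its brightest probe set, 1434045_at, read 1018 with Suv420h1-GFP, 1034 in untransduced and 1065 in GFP null cells. Among wild-type-line arrays it read 1977, 2643 and 3032 with K278*, E824* and Q1430*, 2748 with full-length PREX2, and 1116 and 2665 with GFP and LacZ. The GFP array stood near the null line, K278* came next, and the remaining 4 arrays were highest. The line difference was -1.10 (SE 0.263, limma, adjusted p = 0.0064), and -1.39 with GFP and K278* left out. Against the control vectors, which differed from each other by 1.24, it was -0.71 (SE 0.377, adjusted p = 0.232); this became -1.32, which passed, without GFP and -0.09 without LacZ. The dimmer probe set 1419497_at read 125 to 217 in the null line and 264 to 363 in the wild-type line, a difference of -0.73 that passed; there GFP over LacZ was 0.88 in signal, against 0.42 at the brighter probe set, so the low GFP value was not shared by both.

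Cdkn2d was slightly lower in the null line. At 1416253_at it read 987 with Suv420h1-GFP, 1144 in untransduced and 1023 in GFP null cells. Across the wild-type line it read 1427, 1066 and 1312 with K278*, E824* and Q1430*, 1214 with full-length PREX2, and 1388 and 1352 with GFP and LacZ. The lines overlapped through the E824* array, and the difference of -0.29 (SE 0.106, limma, adjusted p = 0.0471) lost its call in 12 of 17 other settings.

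The pocket proteins showed no line difference past the threshold. Rb1, at 1417850_at, read 857 with Suv420h1-GFP, 811 in untransduced and 716 in GFP null cells, and 848, 774, 758, 790, 686 and 901 with K278*, E824*, Q1430*, full-length PREX2, GFP and LacZ. The ranges lay within each other, and the difference was 0.00467 (95% interval -0.22 to 0.23, limma, adjusted p = 0.976). Rbl1, coding for p107, read 815, 865 and 719 at 1424156_at in the same order of null-line arrays. With K278*, E824*, Q1430*, full-length PREX2, GFP and LacZ it read 876, 620, 625, 651, 956 and 707. As with Ccnd1, K278* and GFP were the highest of the wild-type line. The line difference was 0.13 (95% interval -0.20 to 0.46, adjusted p = 0.527), and it was 0.29 and passed with GFP and K278* left out. The dimmer probe set 1425166_at read 161 to 185 in the null line, 102 to 185 in 5 wild-type arrays and 346 in the GFP array, so the high GFP value was shared by both probe sets.

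Within the wild-type line, the GFP array differed from LacZ, the other control vector, by 0.80 in Ccnd1, 0.66 in Cdk6, 0.42 in Rbl1 and -1.24 in Cdkn1b on the log2 scale, and by 0.01 in Ccnd2. A list of 26 E2F target genes, 23 of them tested, moved with these arrays. Its mean log2 level was 11.29, 10.36 and 10.61 with K278*, E824* and Q1430*, 10.82 with full-length PREX2, and 11.57 and 10.81 with GFP and LacZ; the null-line arrays lay between 10.59 and 10.90. Thus GFP and K278*, high in Ccnd1 and Rbl1 and low in Cdkn1b, were also the highest in E2F targets. At its brightest probe set Ccnd2 did not follow the list. Its probe sets differed in this: GFP minus LacZ ran from -0.04 at 1448229_s_at to 0.26 at 1416124_at. The latter read 668 with GFP and 585 with K278*, against 449 to 593 on the other wild-type arrays. The summed signal of the fibroblast markers was low on the K278* and GFP arrays. It was 173156 with K278* and 167761 with GFP, against 219567 to 232393 on the other 4 wild-type arrays. Dcn, the matrix proteoglycan decorin, read 7633 with K278* and 962 with GFP, against 13857 to 27342. Single markers differed in direction. Twist2 read 2589 with K278* and 3248 with GFP, against 2183 to 2308. S100a4 read 25498 with K278* and 32410 with GFP, against 28893 to 31167. The part of either list's level in the results was not tested.

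**Figure D3:**
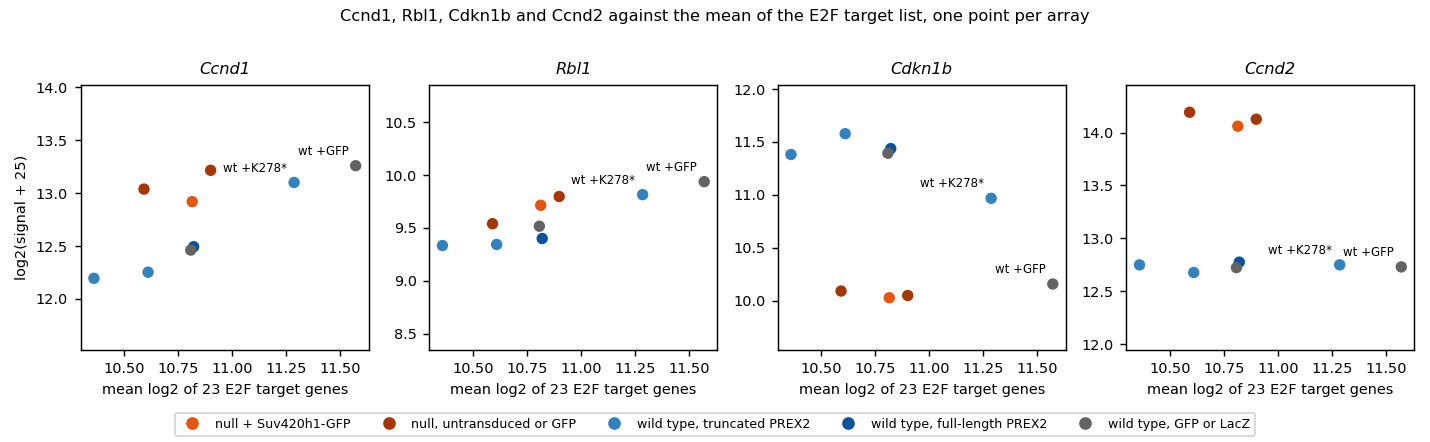
Level of Ccnd1, Rbl1, Cdkn1b and Ccnd2 (vertical axes, log2(signal + 25), brightest probe set) against the mean log2 level of 23 E2F target genes (horizontal axes), with 1 point per array. The wild-type GFP and K278* arrays lie farthest right at 11.57 and 11.29, high in Ccnd1 and Rbl1 and low in Cdkn1b among wild-type arrays, and level with the others in Ccnd2.

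Genes whose log2 profile over the 9 arrays was most like that of a member were ranked by Pearson's r among 10176 genes, for the 5 members that varied by at least 1 log2 unit. Ccnd1 was nearest to Mcm4, Ect2 and Rrm2, genes of DNA replication and cell division, with r of 0.991, 0.990 and 0.988, and the same pairs gave 0.999, 0.993 and 0.992 over the 6 wild-type arrays. Ccnd2 was nearest to Cdkn2b, Tacc1 and Robo1 at 0.999, 0.998 and 0.997, but at -0.34, 0.40 and -0.34 over the 6 wild-type arrays. Cdkn2b was near background in the wild-type line, and its difference between the lines bore on how the 10 genes were grouped, so this likeness is no finding. Cdk6 was nearest to Zmat3, Ndufa12 and Dok1 (0.989, 0.984 and 0.983), with 0.96, 0.97 and 0.91 over the wild-type arrays. Cdkn1b was nearest to Galk2, Olfml1 and Fads2 (0.989, 0.988 and 0.988), with 0.99, 0.97 and 0.99 there, and Cdkn2c to Thy1, Cp and Pappa (0.997, 0.996 and 0.995), with 0.96, 0.98 and 0.93 there. Many genes reached such values: 78 had r over 0.95 with Ccnd1, 93 with Cdk6, 202 with Cdkn1b, 377 with Cdkn2c and 464 with Ccnd2. These are descriptions over arrays that share the line contrast and, within the wild-type line, the GFP and K278* arrays.

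Other genes of the pathway were counted from lists, in the line comparison, against 20.7% higher and 23.2% lower of all genes. Of 9 tested E2F and DP factors with Rbl2, 2 rose, Tfdp1 (0.80), the partner of E2F proteins, and E2f3 (0.39). Of 6 tested genes of the MuvB complex, B-Myb and Foxm1, which switch cell cycle genes off and on, 0 passed in limma. Of the cyclin genes Ccne1, Ccne2 and Ccna2, their kinase Cdk2 and its activating phosphatase Cdc25a, Ccne2 rose (0.91). Of 5 tested genes of the CDK-activating kinase and CDK chaperones, Mnat1 (-0.50) and Cdc37 (-0.37) fell and Ccnh rose (0.21). Of 11 genes that control the turnover of p27 and D cyclins, 3 rose, with Cul1 (0.54) and Gsk3b (0.43) among them, and 4 fell, with the deubiquitinase Usp2 (-0.96) and Fbxo4 (-0.71), an F-box protein for cyclin D1, among them. Of 12 transcription regulators of D cyclin genes, 6 rose and 1 fell, Ets2 (-1.62). The largest rises were in the immediate early genes Fos (5.27), Egr1 (4.25) and Junb (2.30). The list is not of activators alone: Foxo3, known to repress D cyclin genes, rose by 0.60, and its relative Foxo1 was at 0.33 and did not pass. Of 23 E2F targets, 0 rose and 3 fell, Orc1 (-1.02), Ung (-0.69) and Rrm1 (-0.59), all of DNA replication or repair.

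Counts in these lists changed when the wild-type GFP array and K278* were set aside. In the line comparison without both, 4 E2F targets rose and 3 fell, Ccne2, Ccna2, Cdk2 and Cdc25a rose, and 8 regulators of D cyclin genes rose and 2 fell, where 26.9% of all genes were higher and 30.7% lower. With all arrays kept, the GFP control among them, the median log2 difference of the E2F targets was -0.46 against the control vectors. In the line comparison with all arrays it was -0.09, and over all genes these medians were -0.03 and -0.02. Of 4 other CDK inhibitors 3 were tested, and Cdkn2a and Cdkn2b rose. Both were near background in the wild-type line, at 0.925 to 15.9 and 2.04 to 7.17. They reached the minimum mean signal through the null line alone. Their difference between the lines also bore on how the member genes were grouped, so their rise is no finding. Cdkn1a, coding for p21, read 4692 to 5131 in the null line and 2883 to 5336 in the wild-type line. Its line difference was 0.40 and did not pass with all arrays, and was 0.65 and passed without GFP and K278*.

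Putting Suv420h1-GFP back into the null line was followed by no passing change. The Kmt5b probe set 1451817_at itself differed by 2.21 and did not pass, so the comparison could miss large changes. Of the 23 probe sets 0 passed in limma, as did 0% of all 19090, where 621 had an unadjusted p under 0.05 and 0 of these were members. Ccnd2 differed by -0.10 from the null line (95% interval -0.36 to 0.16) and Cdkn2c by -0.13 (-0.56 to 0.30). The other brightest-probe-set differences ran from -0.33 in Ccnd3 to 0.37 in Cdk6. The reconstituted group is 1 array, so its spread was taken from the other groups, and intervals were wide for some genes, such as -1.12 to 1.04 for Cdkn1b.

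Neither form of PREX2 was followed by a passing change in a member gene. Truncated PREX2 against control vectors gave 0 of 23 member probe sets, with 1 of 19090 (0.00524%) passing in limma and 539 under an unadjusted p of 0.05, 0 of them members. At the brightest probe sets the largest differences were 0.53 in Cdkn1b (95% interval -0.27 to 1.34) and -0.34 in Ccnd1 (-1.09 to 0.40); the dimmer Rbl1 probe set 1425166_at gave -0.71 (-1.47 to 0.06). At its brightest probe set Ccnd2 was at 0.00 (-0.20 to 0.19). Full-length PREX2 against control vectors gave 0 members and 0% of all probe sets (269 unadjusted, 0 of them members), with 0.66 in Cdkn1b (-0.42 to 1.74) and -0.37 in Ccnd1 (-1.37 to 0.64). These comparisons share both control-vector arrays, which lay apart in these 2 genes. Truncated minus full-length PREX2 gave 0 members and 0% of all probe sets (241 unadjusted, 0 of them members), with brightest-probe-set differences from -0.23 in Cdk6 (-1.04 to 0.58) to 0.16 in Cdkn2c (-0.24 to 0.57). The full-length group is 1 array.

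**Figure D4:**
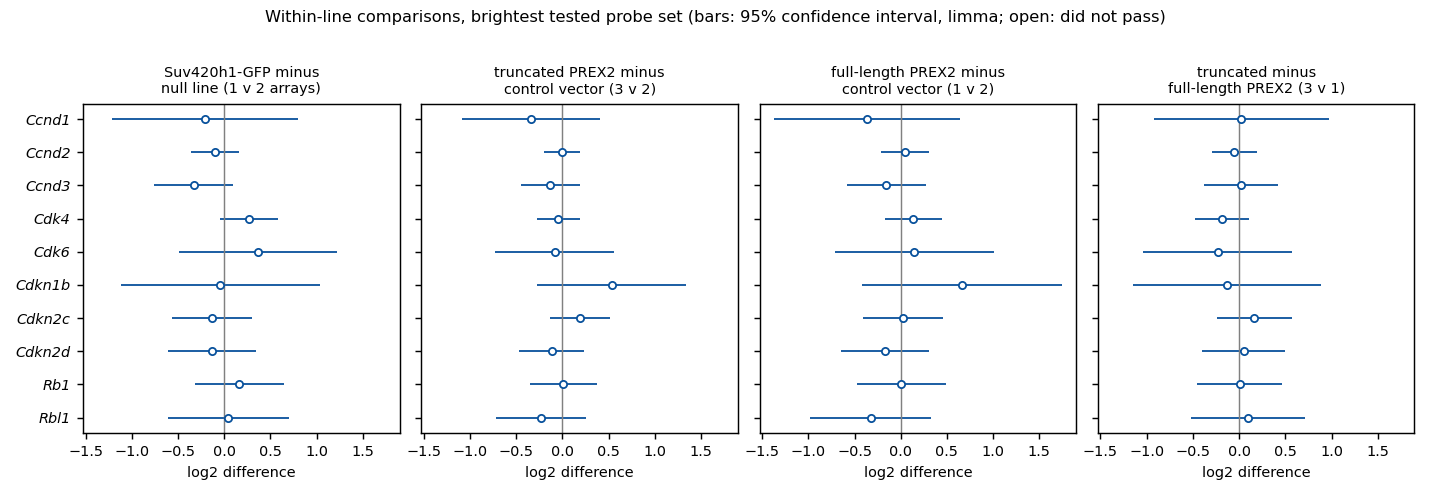
Log2 differences of the 10 genes (horizontal axes, log2(signal + 25), brightest probe set) for Suv420h1-GFP minus null line, truncated PREX2 minus control vector, full-length PREX2 minus control vector, and truncated minus full-length PREX2; bars are 95% confidence intervals from limma. No point passed the test, and the narrowest intervals are those of Ccnd2.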

How the data were processed

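Total RNA from 9 fibroblast samples was hybridised to Affymetrix mouse arrays after 3′ in vitro transcription labelling, according to the labels' protocols. The authors deposited linear intensity values, which the submitters' processing notes name as MAS5 signals without a version or scaling target. The deposited arrays share a mean of 500 once 2% is trimmed at either end, and their medians were 56.3 to 68.7. Precision is limited by how few arrays there are. Of 45101 probe sets, 64 controls were left out; by the platform annotation, 34945 of the rest had 1 gene symbol, 932 had several and 9160 had none.

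Signals were transformed as log2(signal + 25), which understates changes of dim probe sets, and tested where their mean was at least 100. limma 3.58.1 (R 4.3.3) with an intensity trend fitted 5 group means (4 residual degrees of freedom) or the 2 lines (7 residual degrees of freedom). P-values are two-sided, adjusted by Benjamini-Hochberg over all tested probe sets, threshold 0.05. A group of 1 array took its spread from the other groups. The brightest tested probe set stands for a gene.

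All 10 members are named; other genes are Cdkn2a and Cdkn2b, up to 4 passing genes of a list with the largest changes, the genes nearest to a member by Pearson's r, and markers. Cdkn1a, Foxo1, Foxo3, Foxm1, Dcn, Twist2, S100a4, Ccne1, Ccna2, Cdk2 and Cdc25a were named after their values were seen. So were Kmt5b and Prex2, for the label check. Members and lists were chosen with earlier results of these data known. Alternatives were offsets of 5 and 100, a minimum of 200 or none, no trend, quantile normalization, the compared groups alone, group means for the line comparison, the mean over a gene's probe sets, each array left out, and a fit without K278* and the GFP control, which was chosen after seeing the data.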

Additional observations from a re-analysis of the deposited data

How the results depend on the processing

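No paired analysis was run because the labels name no pairs of arrays. In 251 single-gene alternatives the members' differences kept direction and, where a test was run, side of the threshold. They lost a call in 27, gained one in 9, reversed in 13 and moved in size in 2. The mean over a gene's probe sets had no test. In the line comparison Ccnd2, Ccnd3, Cdk6, Cdkn1b and Cdkn2c kept their calls in every setting with a test. With 1 array left out, 5 to 7 member genes were called there, beside 6466 to 9646 of all 19090 probe sets. With GFP and K278* left out there were 8, beside 10639 (8285 with all arrays). For null line against control vectors, all probe sets called numbered 3753, 7054 with the GFP and K278* arrays left out and 1834 with the compared groups alone; leaving out 1 array gave 1011 (without GFP null cells) to 4522, with 1226 without untransduced null cells. Member genes called there were 6 with GFP and K278* left out and 1 to 4 with 1 array left out. Reconstituted minus null line had 233 calls with the compared groups alone and 1 after quantile normalization. Truncated PREX2 against control vectors had 3 calls with GFP and K278* left out, 0 with the compared groups alone, 0 with no filter, 0 at offset 100, and 0 to 117 with 1 array left out, the 117 without LacZ; full-length PREX2 against control vectors had 0 to 3. Against control vectors, Rbl1 turned to 0.15 with GFP and K278* left out. Leaving out 1 array gave -0.13 to 0.67 for Ccnd1, -0.23 to 0.15 for Rb1 and -0.27 to 0.15 for Rbl1. In the line comparison Rb1 turned to -0.0199 with GFP and K278* left out and to -0.0201 after quantile normalization, and ran from -0.0500 to 0.0755 with 1 array left out. The cause of these changes was not tested. Dim probe sets near background limit what can be read for the 6 untested ones.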
